A study of Mus musculus with 18 samples.

Results

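The mitochondrial ribosomal proteins were taken as all genes whose symbol was Mrpl or Mrps followed by a number and at most one letter a, b or c. The table of 19057 lines held 78 of them, of which 49 had large subunit symbols (Mrpl) and 29 had small subunit symbols (Mrps). All 78 were among the 10507 genes with enough signal to be tested. No member passed the test in HFD against Con or in A10-FMT against Con-FMT. Mrpl14 and Mrps35 were called higher both when AOS was given on the high-fat diet and when microbiota of AOS-dosed mice was given on it, where 3 (3.85%) and 2 (2.56%) of the members were called, beside 8.75% and 6.6% of all genes tested. Of 13 settings of the analysis, Mrps35 passed in 6 with AOS and Mrpl14 in 10, and each passed in 12 with the microbiota.

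Mitochondria make the proteins encoded in their own DNA, which are core subunits of the respiratory chain and the ATP synthase, on a ribosome of their own. All protein subunits of that ribosome are encoded in the nucleus, made in the cytosol and imported, and they assemble on RNA made inside the organelle. The ribosome descends from a bacterial one, so part of its proteins have bacterial counterparts and part are specific to mitochondria, and liver, with its many mitochondria, depends on it for oxidative metabolism.

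RNA-seq values from 18 livers of ICR mice, 10 weeks old by their labels, were used, 3 livers from each of 6 groups. Con mice had a regular diet and AOS mice had alginate oligosaccharide at 10 mg/kg. HFD mice had a high-fat diet, and HFD+AOS mice had that diet with AOS at 10 mg/kg. Con-FMT and A10-FMT mice also had the high-fat diet and were given gut microbiota by mouth, from control mice or from mice dosed with AOS at 10 mg/kg. Donor gut contents were pooled by the methods of the study, so the 3 livers of a transplant group share their donors. The methods describe 4 of the groups, and how long the AOS and HFD+AOS mice were dosed was not given in the sources used here. The values are RPKM, reads scaled to the length of the gene and to the size of the library, so levels can be compared between genes. The labels do not say how the 3 samples of a group were raised or chosen, so p-values measure the spread between these samples.

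The libraries were liver by their markers. Albumin (Alb) was between 24367 and 41363 RPKM, all 7 hepatocyte markers were read in every library, and of 5 markers of the exocrine pancreas Prss1 was at 0 in 18 of 18 libraries and Cpa1, Cel and Pnlip were at most at 0.29 RPKM, while Cela1 was at 30.6 to 52.9 RPKM. The 10 highest genes took 29.8% to 39.0% of the summed RPKM of a library. The third Con library and the third AOS library lay between the other 2 libraries of their groups. Among genes that differed by at least 1 on the log2 scale between those other libraries, the third value lay between them for 98.0% of 148 genes in Con and 96.5% of 142 genes in AOS, and the same share was 8.33% to 76.8% in the other 16 libraries. For the members, any difference between those other libraries was taken, with no limit of 1, so these shares cannot be set beside those above. The third value lay between for 38 of 77 members in Con and 29 of 78 in AOS, beside 13 to 33 members in the other libraries. For the comparisons with Con or AOS and for the test over the 6 groups, the counts of called members and the subunit medians are given with and without these 2 libraries.

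The members were well expressed but far from equal in level. The median of their mean RPKM over the 18 livers was 24.7, which was 27.3 for the large subunit and 23.2 for the small. The median member stood at percentile 79.8 of all genes tested. Mean RPKM was between 10 and 50 for 61 members, over 50 for 10 and under 10 for 7, although a working ribosome holds its proteins in fixed proportions. The most abundant large subunit members were Mrpl52, at 98.9 RPKM, and Mrpl12, at 89.9 RPKM, which is a protein of the stalk that recruits translation factors. The most abundant small subunit members were Mrps21, at 100.3 RPKM, and Mrps24, at 51.4 RPKM. The least abundant were Mrpl19 in the large subunit, at 2.19 RPKM, and Mrps25 in the small, at 3.68 RPKM. The highest mean was thus 45.7 times the lowest. The 48 members with a bacterial counterpart had a median of 33.1 RPKM and the 29 specific to mitochondria a median of 22.0 RPKM. One symbol, Mrps36, is in neither class, since its product is known as a subunit of the 2-oxoglutarate dehydrogenase complex of the citric acid cycle rather than of the ribosome.

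**Figure D1:**
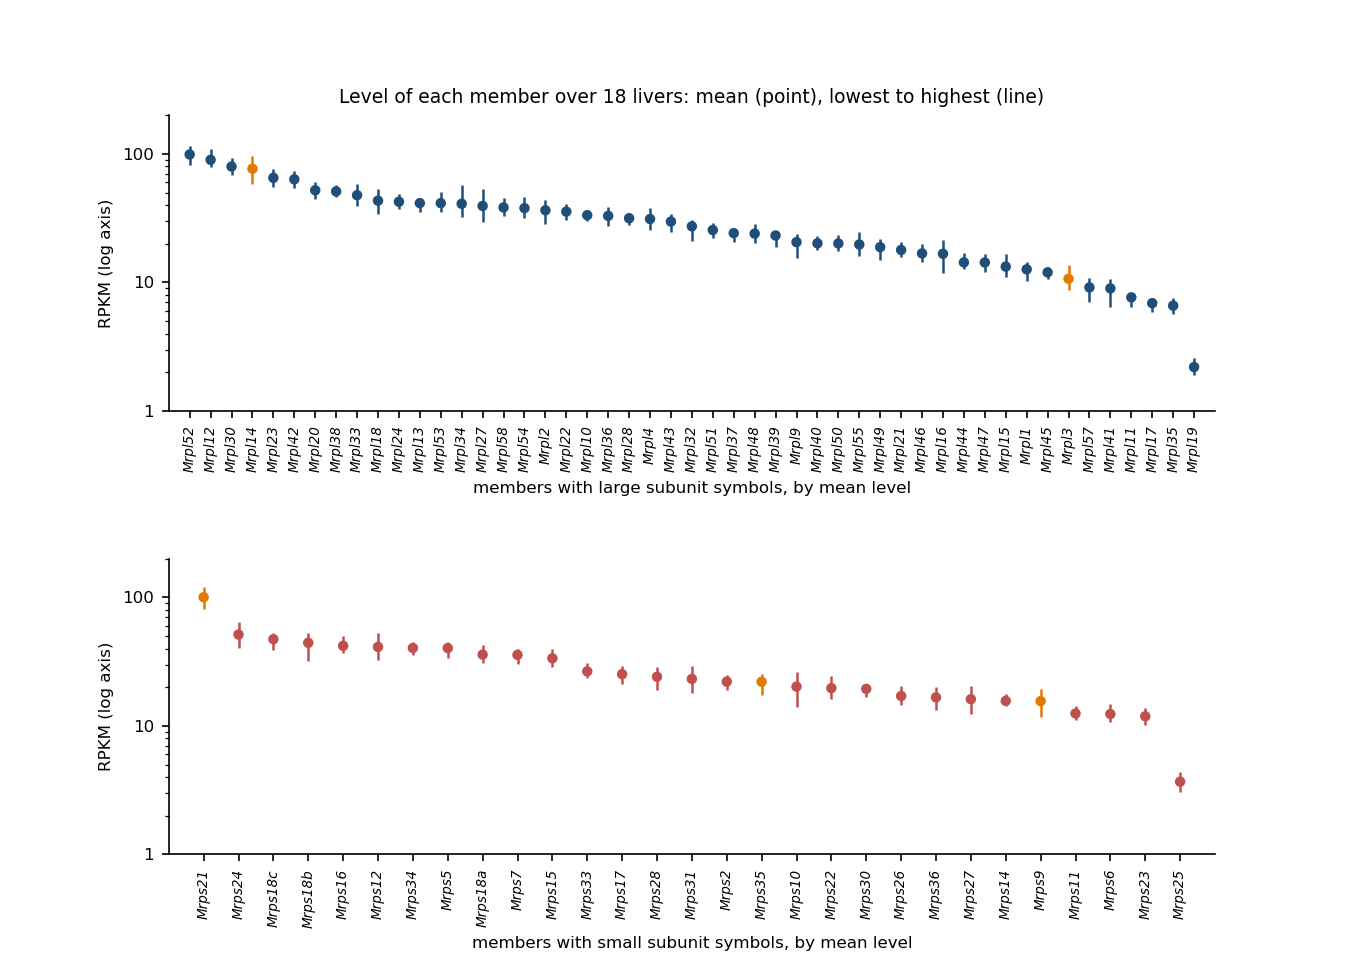
RPKM on a log axis of each of the 49 members with large subunit symbols (top) and the 29 with small subunit symbols (bottom), ordered by mean. Points are means over 18 livers and lines run from the lowest to the highest liver. Orange marks the 5 members with any difference among the groups. The lines are short beside the distance from Mrps21, at 100.3 RPKM, to Mrpl19, at 2.19 RPKM.

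Levels varied little from liver to liver. The median SD of a member within a group was 0.11 on the log2(RPKM + 1) scale, beside 0.13 over all genes tested, and single members ranged from 0.07 to 0.23. Across the 18 livers the median correlation of a member with the mean of the others was 0.46. These points share their libraries, and the values are a description. Mrpl17 was most like the rest, with a correlation of 0.86, followed by Mrpl30 at 0.79 and Mrpl49 at 0.77. Mrpl3, at -0.08, and Mrpl47, at -0.00, were least like it.

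The total of the members was nearly level over the groups. Summed over the 78, the level was 2203, 2559.5 and 2457 RPKM in the 3 Con livers, 2259.8, 2498 and 2212 RPKM in the HFD livers and 2524, 2546 and 2470 RPKM in the A10-FMT livers. It was 2537, 2412 and 2330 RPKM in the AOS livers, 2473, 2314 and 2536 RPKM in the HFD+AOS livers and 2283, 2391 and 2381 RPKM in the Con-FMT livers. A10-FMT had the highest mean, 2513 ± 39.1 RPKM (SD, n = 3), and all of its livers were above all Con-FMT livers but overlapped with the HFD group, whose second liver was high. HFD had the lowest mean, 2323 ± 153 RPKM (SD, n = 3). In each of the 6 groups the liver with the highest total was the one with the smallest share of signal in its 10 highest genes. In HFD that share was 30.7% in the second liver and 35.5% and 36.4% in the others, and its part in the totals was not tested. In bulk liver, a change in the share of a cell type and a change in the RNA per cell cannot be told apart.

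The subunits kept pace with each other. The ratio of summed RPKM of the large to the small subunit was 1.84 ± 0.0487 (SD, n = 3) in Con, 1.88 ± 0.0147 in AOS, 1.86 ± 0.0172 in HFD, 1.89 ± 0.0353 in Con-FMT and 1.89 ± 0.0202 in A10-FMT. It was highest in HFD+AOS, at 1.93 ± 0.0189 (SD, n = 3). The 3 livers of that group, at 1.91 to 1.95, lay above all HFD livers, at 1.85 to 1.88.

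**Figure D2:**
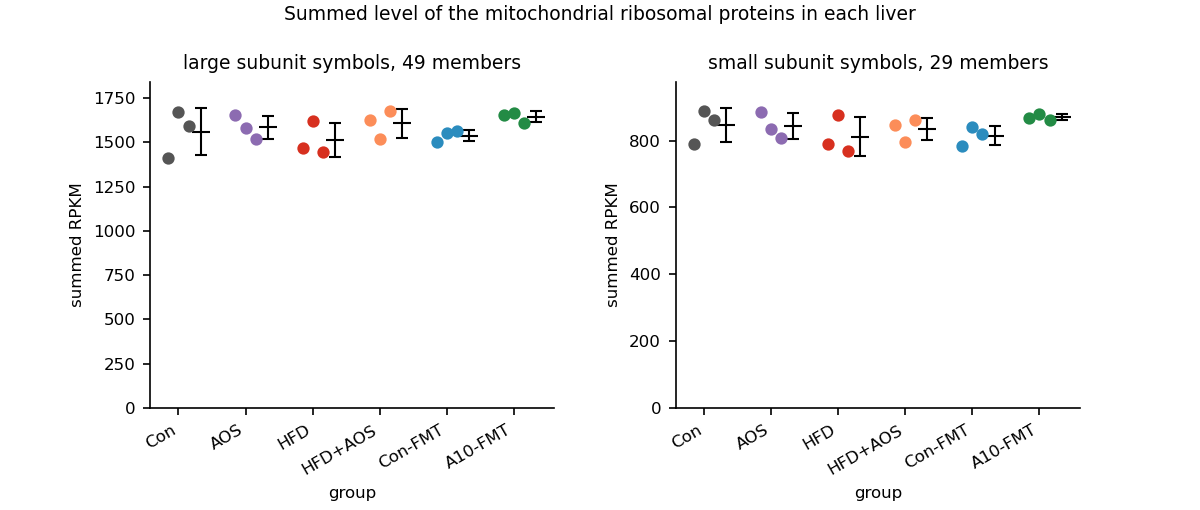
Summed RPKM of the members with large (left) and small (right) subunit symbols, 1 point per liver by group, with the group mean and SD in black (n = 3). The 3 A10-FMT livers lie close together, at 1608 to 1666 RPKM for the large and 862 to 881 RPKM for the small subunit, while Con and HFD livers spread over a wider range.

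Asked for any difference among the 6 groups, 5 of the 78 members passed an adjusted p of 0.05 (limma, F test), which is 6.41% of them beside 14.8% of all genes tested. They were Mrps9, with an adjusted p of 0.00528, Mrpl3, with 0.00555, Mrps35, with 0.0134, Mrpl14, with 0.0140, and Mrps21, with 0.0253. At an unadjusted p under 0.05 there were 12 members (15.4%), beside 32.6% of all genes. Without the third Con and AOS libraries 2 were called, Mrps9 and Mrpl3, which passed in every setting tried. The 5 had different patterns and are described in turn, together with Mrps18b, which passed in a single comparison. Values for the comparisons come from 1 fit over all 18 livers, as log2 fold changes of RPKM + 1 with their standard errors.

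Mrpl14 encodes a large subunit protein with a bacterial counterpart at the face that meets the small subunit. Its level was 64.8, 66.6 and 58.6 RPKM in the HFD livers, 89.7, 77.7 and 81.0 RPKM in HFD+AOS and 97.0, 92.6 and 80.5 RPKM in A10-FMT. It was 63.7, 74.7 and 74.6 RPKM in Con, 82.5, 75.9 and 79.4 RPKM in AOS and 78.2, 71.4 and 71.3 RPKM in Con-FMT. Every liver of HFD+AOS, A10-FMT and Con-FMT was above every HFD liver, while the ranges of HFD and Con overlapped. Compared to HFD, Mrpl14 rose by 0.50 ± 0.091 (log2, SE) in A10-FMT, with an adjusted p of 0.00428, and by 0.38 ± 0.091 in HFD+AOS, with an adjusted p of 0.0187. In Con-FMT the difference was 0.22, with an adjusted p of 0.718, and A10-FMT was above Con-FMT by 0.28, with an adjusted p of 0.134. These comparisons share the 3 HFD livers or the A10-FMT livers. The gene is at chr17:45686322-45698495 on the plus strand (GRCm38). Its exons overlap with those of Tmem63b on the other strand, and whether reads were counted by strand is not stated.

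Mrps35, at chr6:147042764-147073991 on the plus strand, encodes a small subunit protein that is specific to mitochondria. It was at 17.4, 21.4 and 18.2 RPKM in HFD, at 22.0, 23.6 and 23.9 RPKM in HFD+AOS and at 25.1, 25.0 and 25.6 RPKM in A10-FMT. Con livers had 19.2, 21.4 and 19.1 RPKM, AOS livers 22.2, 24.1 and 23.9 RPKM and Con-FMT livers 22.1, 21.9 and 20.9 RPKM. The 3 groups given AOS or the AOS microbiota all lay above Con and HFD, without overlap, and A10-FMT was also above Con-FMT. HFD+AOS overlapped with Con-FMT, and the lowest AOS liver, at 22.2 RPKM, was just above the highest Con-FMT liver, at 22.1 RPKM. Con-FMT overlapped with Con and with HFD. The rise over HFD was 0.40 ± 0.076 (log2, SE) in A10-FMT, with an adjusted p of 0.00652, and 0.28 ± 0.076 in HFD+AOS, with an adjusted p of 0.0340. The call in HFD+AOS was lost in 7 of 13 settings, with an adjusted p of up to 0.163 (limma). AOS on the regular diet differed from Con by 0.22, with an adjusted p of 0.188.

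Mrps9, at chr1:42851233-42905683 on the plus strand, encodes the counterpart of a bacterial small subunit protein whose tail reaches the tRNA in the peptidyl site. It was lowest in Con, at 11.8, 13.4 and 12.9 RPKM. The AOS livers had 15.0, 14.1 and 13.8 RPKM and the HFD livers 15.0, 14.5 and 14.4 RPKM. HFD+AOS livers had 16.1, 18.1 and 18.7 RPKM, Con-FMT livers 17.9, 16.2 and 16.3 RPKM and A10-FMT livers 19.3, 17.5 and 15.8 RPKM. The groups thus stood in 3 steps, Con, then AOS and HFD, then the 3 groups with a further treatment on the high-fat diet, and neighbouring steps did not overlap while the groups within a step did. Between single groups only HFD+AOS against AOS passed, with a rise of 0.29 ± 0.080 (log2, SE) and an adjusted p of 0.0497. That call sat at the threshold, and without the third Con and AOS libraries its adjusted p was 0.221.

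Mrpl3, at chr9:105053239-105079888 on the plus strand, encodes the counterpart of a bacterial large subunit protein that reaches towards the peptidyl transferase centre. It was at 8.78, 9.55 and 8.75 RPKM in Con, at 10.0, 10.8 and 12.4 RPKM in HFD and at 13.4, 13.7 and 12.3 RPKM in Con-FMT. The AOS livers had 10.2, 9.90 and 9.85 RPKM, the HFD+AOS livers 10.0, 10.2 and 9.83 RPKM and the A10-FMT livers 9.99, 11.01 and 11.4 RPKM. Con was below all the others, and A10-FMT was below Con-FMT without overlap. HFD against Con gave 0.26 ± 0.075 (log2, SE) and A10-FMT against Con-FMT gave -0.26 ± 0.075, with adjusted p of 0.125 and 0.102. So neither of these comparisons passed, although the test over the 6 groups did. Con-FMT against Con was not fitted.

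Mrps21, the most abundant small subunit member, lies at chr3:95862634-95871519 on the minus strand and encodes the counterpart of a small bacterial protein. It was at 112, 122 and 115 RPKM in Con and at 86.9, 101 and 88.2 RPKM in HFD. The A10-FMT livers had 111, 118 and 100.3 RPKM and the Con-FMT livers 83.4, 88.5 and 85.9 RPKM. HFD+AOS livers had 99.3, 81.9 and 95.9 RPKM and AOS livers 118, 99.1 and 99.1 RPKM. HFD lay below Con, and Con-FMT below A10-FMT, without overlap. The differences were -0.34 ± 0.096 (log2, SE) for HFD against Con, with an adjusted p of 0.126, and 0.35 ± 0.096 for A10-FMT against Con-FMT, with an adjusted p of 0.0819. With the median of every library set equal they were -0.39 and 0.39, with adjusted p of 0.0484 and 0.0198.

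Mrps18b, at chr17:35910379-35916389 on the minus strand and one of 3 paralogs of a single bacterial protein, was the one member called lower in a comparison. It was at 51.3, 50.4 and 41.3 RPKM in HFD and at 31.9, 35.9 and 39.7 RPKM in HFD+AOS. The ranges did not overlap, with the third liver of each group nearest to the other group. The fall was by 0.40 ± 0.12 (log2, SE), with an adjusted p of 0.0435. Its level in A10-FMT, 47.6, 42.9 and 52.5 RPKM, overlapped with that in HFD.

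**Figure D3:**
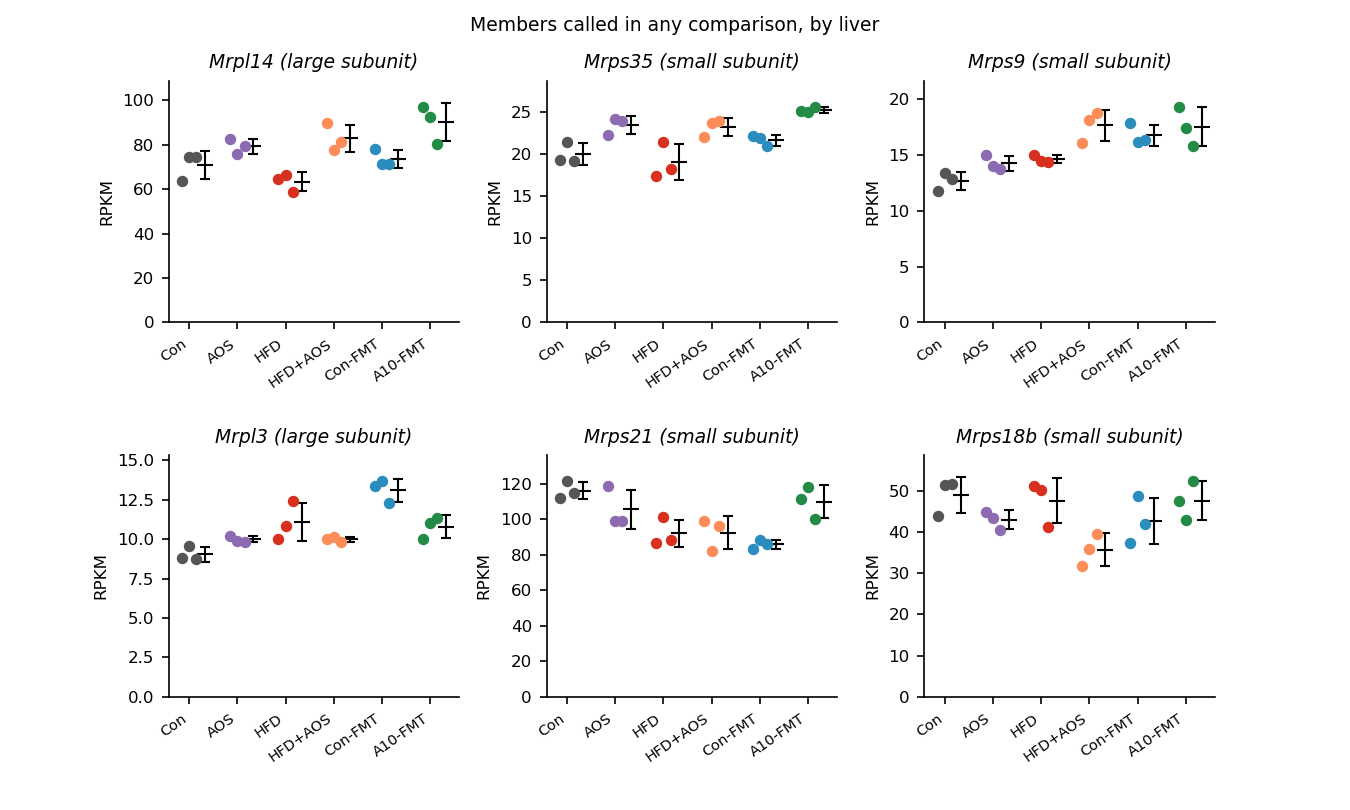
RPKM of the 6 members called in any comparison, 1 point per liver by group, with the group mean and SD in black (n = 3). Mrpl14 and Mrps35 are higher in HFD+AOS and A10-FMT than in HFD, Mrps9 climbs in 3 steps from 12.7 RPKM in Con, Mrpl3 peaks at 13.1 RPKM in Con-FMT, Mrps21 is lowest in Con-FMT at 85.9 RPKM, and Mrps18b is lowest in HFD+AOS at 35.8 RPKM.

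The 120 bases that lead up to the start are shown for those of the called genes with a RefSeq promoter, because these members had different patterns and the letters show whether they share a motif of the factors known for nuclear genes of mitochondria. The sequences are from RefSeq, build GRCm38.p6, 5′ to 3′ on the strand of the gene. They lie at chr17:45686229-45686348 for Mrpl14 and chr1:42851113-42851232 for Mrps9, both on the plus strand, at chr9:105053148-105053267 for Mrpl3, on the plus strand, and at chr3:95871515-95871634 for Mrps21 and chr17:35916441-35916560 for Mrps18b, both on the minus strand. Capitals mark a motif, CCGGAAGT for ETS factors such as GABPA or CCCGCCCC, the reverse complement of GGGGCGGG, for SP1.
Mrpl14: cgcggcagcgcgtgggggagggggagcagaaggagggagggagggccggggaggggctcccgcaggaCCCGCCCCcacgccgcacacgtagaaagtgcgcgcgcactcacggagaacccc
Mrps9: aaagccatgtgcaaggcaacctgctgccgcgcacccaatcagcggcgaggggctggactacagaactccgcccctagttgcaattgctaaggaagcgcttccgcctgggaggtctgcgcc
Mrpl3: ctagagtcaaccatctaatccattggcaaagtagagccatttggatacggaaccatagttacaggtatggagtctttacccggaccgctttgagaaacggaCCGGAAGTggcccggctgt
Mrps21: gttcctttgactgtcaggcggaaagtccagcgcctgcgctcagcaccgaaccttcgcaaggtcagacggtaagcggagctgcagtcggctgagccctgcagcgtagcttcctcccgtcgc
Mrps18b: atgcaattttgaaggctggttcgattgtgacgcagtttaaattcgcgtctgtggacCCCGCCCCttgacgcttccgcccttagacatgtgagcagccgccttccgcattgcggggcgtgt
The SP1 letters are in the windows of Mrpl14 and Mrps18b and the ETS letters in that of Mrpl3, while those of Mrps9 and Mrps21 hold none of the motifs searched. In the longer promoter of Mrps18b, from 250 bases before to 50 after its start, the NRF1 core is found as well.

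Over the members as a whole, such letters were frequent. RefSeq promoters, from 250 bases before to 50 after the start, matched 69 of the 78 members, and both strands were searched. The core CGCATGCG of NRF1, an activator of nuclear genes for mitochondrial proteins, was in 7 of 69 (10.1%) and in 2.66% of all 16522 promoters. The ETS letters CCGGAAGT were in 11 of 69 (15.9%) and in 5.52% of all, and AAGATGGC for YY1 in 12 of 69 (17.4%) and in 3.29% of all. The SP1 letters GGGGCGGG were in 20 of 69 (29.0%) and in 23.1% of all. TCAAGGTCA, for the oestrogen-related receptors, was in 0 of 69 and in 0.339% of all. Either of the NRF1 and ETS letters was in 26.1% of member promoters and in 7.89% of all. No motif searched contains another, and a match is a description, not a site.

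The members lie on 17 chromosomes (GENCODE M21, GRCm38), and many share their start region with another gene. A protein-coding gene on the other strand started within 1000 bases, head to head, for 18 of 78 members (23.1%), beside 6.78% of 21951 protein-coding genes. Partners included Fau, a fusion of a ubiquitin-like protein and a ribosomal protein, 59 bases from Mrpl49, and Sars2, the mitochondrial seryl-tRNA synthetase, 172 bases from Mrps12. Exons overlapped with a gene on the same strand for 8 members and on the other strand for 28. The counting of reads at such places is not stated, so the levels of these members are less certain. Of the called members they include Mrpl14, Mrpl3, which shares exons with Gm38077 on the same and Gm47106 on the other strand, and Mrps18b, with Gm16279 on the other strand. Mrpl23, Mrpl48 and Mrps36 have named pseudogenes.

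The first comparison asked what the high-fat diet did to the liver, as HFD against Con. No member was called, beside 0.381% of all genes tested, and 6 of 78 (7.69%) had an unadjusted p under 0.05 (limma), beside 15.4% of all genes. The median log2 fold change was -0.01 for the large and -0.04 for the small subunit, beside 0.05 over all genes. For 77 of 78 members the 95% interval of the difference stayed within 1.5-fold in either direction, as for 85.9% of all genes. The widest differences were 0.26 for Mrpl3 and -0.31 for Mrpl34 in the large subunit, and 0.25 for Mrps31 and -0.34 for Mrps21 in the small. None of these passed, with adjusted p from 0.125 to 0.400. When the third library of Con and of AOS was left out, 0 members were called, the medians were 0.01 and -0.02, and the 4 differences were 0.24 for Mrpl3, -0.33 for Mrpl34, 0.29 for Mrps31 and -0.34 for Mrps21. With library medians set equal, 1 member (1.28%), Mrps21, passed, beside 0.447% of all genes.

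**Figure D4:**
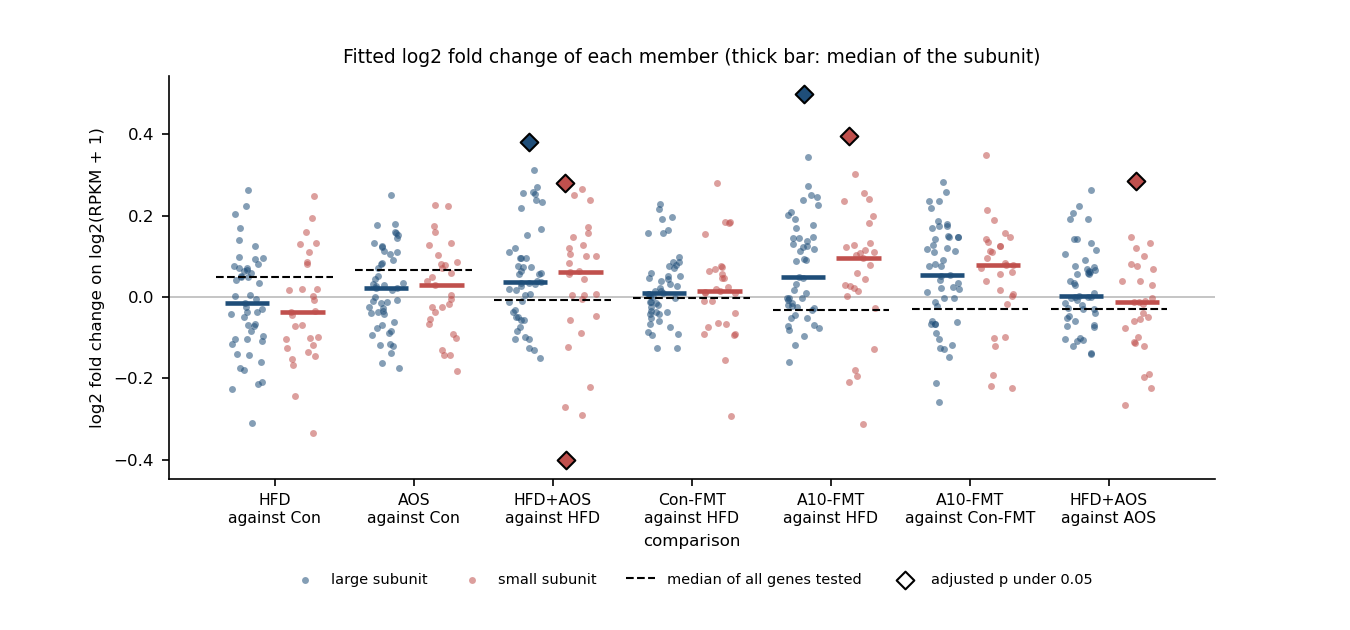
Log2 fold change on the log2(RPKM + 1) scale of each member in 7 comparisons, large subunit in blue and small in red. Thick bars are subunit medians, dashed lines the median of all genes tested and diamonds the members with an adjusted p under 0.05. The members lie within 0.50 of 0, and the called ones are in HFD+AOS against HFD, A10-FMT against HFD and HFD+AOS against AOS.

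AOS on the regular diet moved the members as little. No member was called in AOS against Con, beside 0.133% of all genes, and 1 member (1.28%), Mrps35, had an unadjusted p under 0.05 (limma), beside 15.5% of all genes. Medians were 0.02 for the large and 0.03 for the small subunit, beside 0.07 over all genes. The widest differences were 0.25 for Mrpl27, which is read at 32.2, 33.0 and 33.5 RPKM in Con and at 48.5, 34.7 and 36.1 RPKM in AOS, and 0.23 for Mrps10, with -0.18 for both Mrpl20 and Mrps18b. When the third library of Con and of AOS was left out, 0 members were called and the medians were 0.07 for the large and 0.10 for the small subunit.

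With AOS on the high-fat diet, 2 members were called higher and 1 lower than on that diet alone. In HFD+AOS against HFD, 3 of 78 were called (3.85%), beside 8.75% of all genes, namely Mrpl14 and Mrps35 upward and Mrps18b downward. Of these only Mrpl14 was called when the third library of Con and of AOS was left out (limma, adjusted p of 0.0408). Mrpl14, Mrps35 and Mrps18b passed in 10, 6 and 5 of 13 settings, and no member passed in a fit of only these groups. At an unadjusted p under 0.05 there were 13 members (16.7%), beside 26.2% of all genes in either direction. Of all 10507 genes 1308 were higher at that limit and 1446 lower, while 10 of the 13 members were higher. Among the higher ones, and named after its values were seen, Mrpl58, which encodes a peptidyl-tRNA hydrolase built into the large subunit, was at 33.1, 39.0 and 34.2 RPKM in HFD and at 43.8, 39.5 and 45.3 RPKM in HFD+AOS, without overlap, with a difference of 0.27 and an adjusted p of 0.0772. The medians were 0.04 for the large and 0.06 for the small subunit, beside -0.01 over all genes. Above 0 were 53 of 78 members (67.9%), beside 48.7% of all genes. With library medians set equal, 6 members were called, 5 higher and 1 lower (7.69%), beside 12.3% of all genes.

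The transplant of microbiota from control mice moved no member past the threshold. In Con-FMT against HFD, 0 of 78 were called, beside 0.00952% of all genes. Of all genes 6.63% had an unadjusted p under 0.05 (limma), 408 of 10507 higher and 289 lower. Among the members 5 (6.41%) had such a p, all of them higher. They were Mrpl3, Mrps26, Mrps35, Mrpl14 and Mrps9, named after their values were seen except for Mrpl3 and Mrps26. Mrps26, specific to mitochondria, was at 16.7, 15.3 and 14.6 RPKM in HFD and at 19.5, 18.9 and 18.7 RPKM in Con-FMT. The groups did not overlap, and the difference was 0.28 ± 0.10 (log2, SE), with an adjusted p of 0.637. The medians of both subunits were 0.01.

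Mrpl14 and Mrps35 were higher in livers given microbiota of AOS-dosed mice than in HFD livers. Neither was called in A10-FMT against Con-FMT, where 0 of 78 members passed. In A10-FMT against HFD these 2 of 78 were called (2.56%), beside 6.6% of all genes, and 2 were called without the third Con and AOS libraries as well. In a fit of only these 2 groups neither passed, with adjusted p of 0.0883 for Mrpl14 and 0.123 for Mrps35 (limma). At an unadjusted p under 0.05 there were 15 members (19.2%), beside 24.5% of all genes in either direction. Of all 10507 genes 1056 were higher at that limit and 1515 lower, while 14 of the 15 members were higher. Beside the called ones, Mrpl41 was at 8.91, 7.91 and 6.47 RPKM in HFD and at 9.35, 10.7 and 10.1 RPKM in A10-FMT, without overlap, with a difference of 0.34 and an adjusted p of 0.0532. The stalk protein Mrpl12 was at 85.0, 88.6 and 83.9 RPKM in HFD and at 91.7, 109.5 and 96.2 RPKM in A10-FMT, also without overlap, with 0.20 and an adjusted p of 0.143. The single lower one was Mrps27, with -0.31 and an adjusted p of 0.123. The medians were 0.05 for the large and 0.10 for the small subunit, beside -0.03 over all genes. Above 0 were 52 of 78 members (66.7%), beside 43.2% of all genes.

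The count of called members in this comparison depended on how the libraries were scaled. With library medians set equal, 12 members were called in A10-FMT against HFD, all of them higher. That is 15.4% of the members, beside 5.74% of all genes called higher in that setting, while as deposited it was 2.56% beside 2.62%. In either direction, 10.2% of all genes were called in that setting and 6.6% as deposited. The members gained were Mrpl51, Mrpl2, Mrpl58, Mrps21, Mrpl41, Mrps9, Mrps17, Mrpl23, Mrpl12 and Mrps24, with log2 fold changes of 0.24 to 0.38. They were named after their values were seen.

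Markers of other cells moved in the same comparisons. Of the cholangiocyte markers, 3 of 5 were tested and 1 was called, Sox9, which fell by 1.03 (log2) in A10-FMT and by 0.87 in HFD+AOS against HFD. The other 2 were above 0 in both, and the median of the 3 was 0.18 and 0.04. The summed level of the 3 tested was 17.9 to 25.0 RPKM in HFD, 20.5 to 28.8 RPKM in HFD+AOS and 19.6 to 23.8 RPKM in A10-FMT, and none of the 5 was at 0 in any library. Of 7 hepatocyte markers 1 was called in both, Cyp2e1, which rose by 0.70 and 0.63, with a summed level of 49668 to 60786 RPKM in HFD, 57628 to 66143 RPKM in HFD+AOS and 51503 to 55302 RPKM in A10-FMT. No Kupffer, endothelial, lymphocyte, stellate or erythroid marker was called in either. Their part in the differences of the members was not tested.

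The transplants differed from each other in no called member. In A10-FMT against Con-FMT, 0 of 78 were called, beside 1.68% of all genes. At an unadjusted p under 0.05 (limma) there were 8 members (10.3%), beside 16.4% of all genes in either direction. Of all 10507 genes 599 were higher at that limit and 1128 lower, while 7 of the 8 members were higher. The largest differences of members were 0.35 for Mrps21 and 0.28 for Mrpl14 upward and -0.26 for Mrpl3 and -0.22 for Mrps27 downward. The first 3 had ranges that did not overlap. The medians were 0.06 for the large and 0.08 for the small subunit, beside -0.03 over all genes. With library medians set equal 1 member (1.28%), Mrps21, was called, beside 2.31% of all genes.

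With AOS given on both diets, 1 member was called at the threshold. In HFD+AOS against AOS, Mrps9 was called (1.28%), beside 5.44% of all genes, and 5 members (6.41%) had an unadjusted p under 0.05, beside 20.5% of all genes. Mrps9 passed in 3 of 13 settings, with an adjusted p of 0.0298 to 0.221 (limma), and was lost with a pseudocount of 0.1, with no filter, with the replicate number as a block and without the third Con and AOS libraries. Mrpl48, at 23.6, 23.3 and 20.9 RPKM in AOS and 28.2, 25.6 and 28.2 RPKM in HFD+AOS, came next, with 0.26 and an adjusted p of 0.0989, or 0.21 and 0.361 without those libraries. The widest differences downward were -0.14 for Mrpl36 and -0.26 for Mrps18b. The medians were 0.00 for the large and -0.01 for the small subunit, and -0.00 and -0.05 without those libraries. Blood markers moved here, with 3 of 7 erythroid markers called lower and a summed level of 3104 to 4018 RPKM in AOS and 1070 to 1693 RPKM in HFD+AOS, while the other 4 were above 0. All 7 Kupffer cell markers were lower and 0 were called (limma; 1 at an unadjusted p under 0.05), with a median of -0.40 and a summed level of 74.1 to 101 RPKM in AOS and 66.5 to 74.4 RPKM in HFD+AOS. The part of these markers was not tested. Of 6 stellate cell markers 1 was called, Reln, which rose by 0.68, with a summed level of 81.7 to 90.4 RPKM in AOS and 80.3 to 115 RPKM in HFD+AOS. Cyp2e1 rose by 0.89, with the summed hepatocyte level at 49609 to 56310 RPKM in AOS and 57628 to 66143 RPKM in HFD+AOS.

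The effect of AOS itself was compared between the diets as a difference of differences. No member was called, beside 0.504% of all genes, and 5 (6.41%) had an unadjusted p under 0.05 (limma), beside 14.7% of all genes. The largest values were 0.38 for Mrpl41 and 0.27 for Mrps18a upward and -0.26 for Mrpl3 and -0.36 for Mrps22 downward, with adjusted p from 0.237 to 0.444. The medians were 0.04 and 0.06 for the large and small subunit, beside -0.08 over all genes. Without the third Con and AOS libraries 0 members were called and the medians were -0.03 and -0.01.

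Some members of known special roles were followed in every comparison. Mrpl10, which anchors the stalk, was at 34.6 ± 0.302 RPKM in HFD and 33.4 ± 2.45 RPKM in A10-FMT (SD, n = 3), and its differences between pairs of groups lay between -0.06 and 0.07. Mrps12, the counterpart of a bacterial protein of the decoding site, varied more from liver to liver, with 37.6, 52.6 and 34.2 RPKM in HFD and 32.4, 49.3 and 34.9 RPKM in Con-FMT. No adjusted p of Mrps12 was under 0.693. Of the 3 paralogs of the Mrps18 family, Mrps18a and Mrps18b had opposite signs in HFD+AOS against HFD, 0.24 with an adjusted p of 0.195 and -0.40 as given above, and Mrps18c had 0.11. Mrps18a and Mrps30 carry small subunit symbols but sit in the large subunit of the assembled ribosome. Mrps30 was at 19.1 ± 0.748 RPKM in HFD and 19.99 ± 1.07 RPKM in A10-FMT (SD, n = 3). Mrps36 was lower in all 3 HFD livers, at 13.6, 16.3 and 17.3 RPKM, than in the Con livers, at 17.5, 19.1 and 19.7 RPKM, with -0.24 and an adjusted p of 0.301.

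The other genes of mitochondrial translation did not move with the ribosomal proteins in one direction. Of the 5 ribosomal proteins tested that carry other symbols, 1 was called in HFD+AOS against HFD, Ptcd3, which fell by 0.28 with an adjusted p of 0.0331. Dap3 was at 22.3, 22.3 and 22.7 RPKM in A10-FMT and at 19.0, 22.6 and 21.3 RPKM in HFD. Of 25 assembly factors 1 was called, Rbfa, which matures the small subunit RNA and rose by 0.40 in A10-FMT against HFD with an adjusted p of 0.0412. Of 16 translation factors, Gfm2, which recycles ribosomes, fell by 0.25 in A10-FMT (adjusted p of 0.0488) and Taco1, an activator of translation of a cytochrome oxidase subunit, fell by 0.30 in HFD+AOS (adjusted p of 0.0477), both against HFD. None of the 19 mitochondrial tRNA synthetases tested was called in a comparison of 2 groups, and in A10-FMT against HFD 3 of them had p below 0.05 before adjustment (limma).

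Among regulators, Esrra, a nuclear receptor that activates genes of oxidative metabolism, was the one called in the 7 comparisons of 2 groups. It was at 9.72, 9.29 and 10.5 RPKM in HFD, at 13.0, 11.8 and 11.8 RPKM in HFD+AOS and at 15.0, 15.9 and 12.1 RPKM in A10-FMT. A10-FMT and HFD+AOS lay above HFD without overlap. So did Con-FMT, at 10.8 to 12.6 RPKM, and Con, at 10.7 to 12.2 RPKM, while AOS, at 10.4 to 12.2 RPKM, overlapped with HFD. The rise of A10-FMT over HFD was 0.49 ± 0.098 (log2, SE), with an adjusted p of 0.00768 (limma). A10-FMT was above Con-FMT by 0.30, with an adjusted p of 0.143, and their ranges overlapped. Of the 7 genes of mitochondrial transcription, Mterf2 rose in HFD+AOS by 0.47 against HFD (adjusted p of 0.0339) and by 0.56 against AOS (adjusted p of 0.0185). Tefm, the elongation factor, rose by 0.43 against AOS, with an adjusted p of 0.0118. Tfam, Polrmt, Nrf1 and Gabpa were not called in any comparison.

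The lists most alike in kind are shown side by side as a description. In HFD against Con the median was -0.15 for 77 cytosolic ribosomal proteins, of which 6 (7.79%) were above 0, beside 62.5% of all genes. It was -0.10 for 74 nuclear subunits of the respiratory chain and ATP synthase, beside -0.03 for the 78 members. In A10-FMT against HFD the respiratory chain had a median of 0.12, with 65 of 74 above 0 and 0 called, beside 0.08 for the members. Of all genes tested 43.2% were above 0 and 6.6% called. For the respiratory chain list 11 (14.9%) had an unadjusted p under 0.05 (limma), all of them higher. Of all genes 24.5% had such a p in either direction, 1056 of 10507 higher and 1515 lower. Translation factors and tRNA synthetases had medians of 0.14 and 0.12 in HFD against Con.

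**Figure D5:**
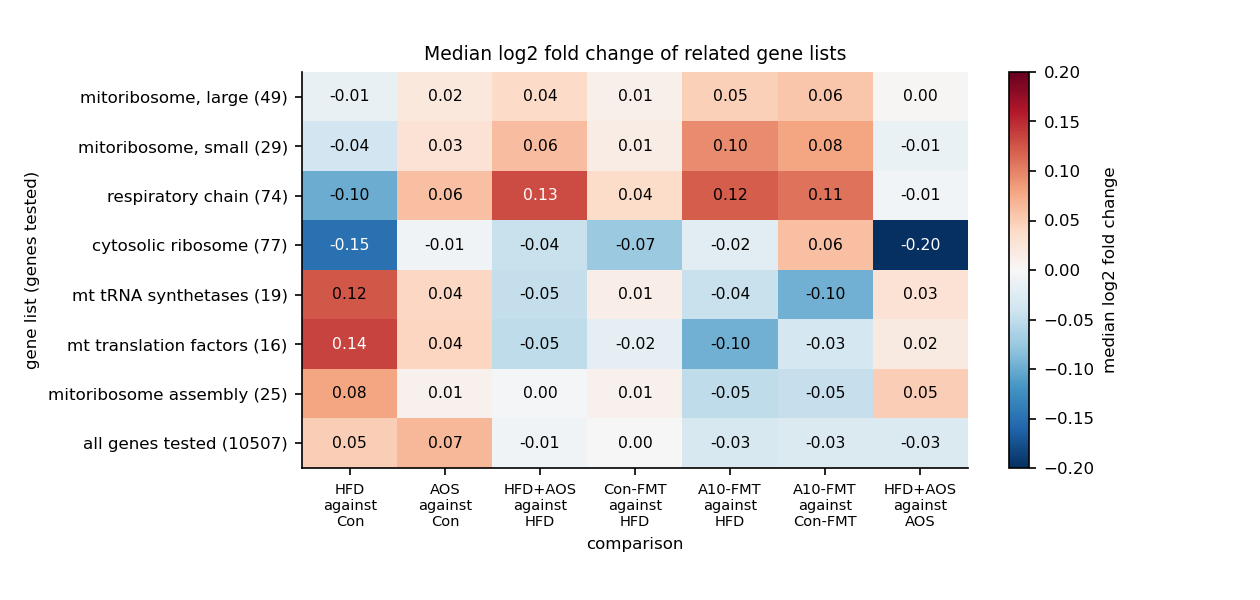
Median log2 fold change of the members by subunit and of 5 related gene lists in 7 comparisons, beside all genes tested (number of genes in brackets; mt means mitochondrial). Red is higher and blue lower in the first group named. The respiratory chain row runs from -0.10 in HFD against Con to 0.13 in HFD+AOS against HFD, and the rows of the members from -0.04 to 0.10. The cytosolic ribosome row runs from -0.20 in HFD+AOS against AOS to 0.06 in A10-FMT against Con-FMT.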

How the data were processed

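Liver RNA of 18 mice was sequenced by the study on an Illumina instrument. The authors deposited 1 table of RPKM per gene and library, made with SOAPaligner by their methods and with Bowtie 0.12.2 on mm10 by the submitters' processing notes, and which of them made these values is not given in the sources used here. Read numbers and strand setting are not given, so depth is unknown and no count test (the study used DEGseq) could be run. In 164 sparsely read genes the smallest value was nearly the same in every library (mean ratio 0.988 to 1.015). Genes encoded in mitochondrial DNA were not analysed here.

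Genes with at least 1 RPKM in at least 3 libraries (10507) were tested on log2(RPKM + 1) with limma 3.58.1 in R 4.3.3, 1 mean per group over all 18 libraries, p adjusted by Benjamini-Hochberg across these genes, two-sided, threshold 0.05. This scale understates the change of low genes. Comparisons of 2 groups share groups (HFD in 4, Con in 2) and are not independent. The difference of the AOS effect uses HFD and Con as well. The fit was tested on simulated data. Tables and plots were made with Python 3.11.15, pandas 2.3.3 and matplotlib 3.10.9. Named members were up to 4 called per comparison, the largest rise and fall per subunit in each comparison, the most and least abundant, those most and least like the rest and 8 of known role, with called genes of the other lists (up to 3 per list and comparison) and 9 fixed ones, and others are said to be chosen after their values were seen. The members and lists were chosen with earlier results of these data known. Alternatives were library medians set equal, a pseudocount of 0.1, no filter, only the groups compared, a replicate block, and leaving out libraries.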

Additional observations from a re-analysis of the deposited data

How the results depend on the processing

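Depth is unknown, so how far it limits low members such as Mrpl19 cannot be given. The cause of the changes below was not tested. Shares of all genes called are given below only for library medians set equal, so the other counts have no share beside them. With library medians set equal, 1 member was called in HFD against Con (1.28%, beside 0.447% of all genes). There were 6 in HFD+AOS against HFD (7.69%, beside 12.25%) and 12 in A10-FMT against HFD (15.4%, beside 10.2%). In A10-FMT against Con-FMT 1 was called (1.28%, beside 2.31%) and in HFD+AOS against AOS 3 (3.85%, beside 7.3%). Over the 6 groups 9 were called (11.5%, beside 19.0%). The medians in this setting were -0.0378 (small subunit, AOS against Con) and 0.1198 and 0.1396 (large and small subunit, difference of the AOS effect). In a fit of only the groups compared, with fewer samples, 0 members were called in HFD+AOS against HFD, in A10-FMT against HFD and in HFD+AOS against AOS. The last count was also 0 with a pseudocount of 0.1, with no filter, with the replicate block and without the third Con and AOS libraries. Without those libraries 1 was called in HFD+AOS against HFD and 2 over the 6 groups, and small subunit medians were 0.0977 in AOS against Con and -0.0089 in the difference of the AOS effect. Leaving out 1 library at a time gave 0 to 3 members called in HFD+AOS against HFD (0 without HFD+AOS 1, 1 without HFD 3 or HFD+AOS 2), 2 to 4 in A10-FMT against HFD (4 without A10-FMT 3), 0 to 2 in A10-FMT against Con-FMT (2 without A10-FMT 3) and 0 to 1 in HFD+AOS against AOS. The medians then ranged from -0.086 to 0.0307 (small, HFD against Con), -0.0519 to 0.0557 (large, AOS against Con), 0.0017 to 0.108 (large, HFD+AOS against HFD), -0.0161 to 0.0864 and -0.0324 to 0.0866 (large and small, Con-FMT against HFD) and -0.006 to 0.0821 (small, difference of the AOS effect). Mrpl16 in A10-FMT against HFD ranged from -0.378 (without A10-FMT 3) to 0.0185 (without A10-FMT 1). Mrpl14 and Mrps35 in A10-FMT against HFD passed in 12 of 13 settings each (limma, adjusted p from 0.00136 to 0.0883 and from 0.00178 to 0.123), while Mrpl14, Mrps35 and Mrps18b in HFD+AOS against HFD passed in 10, 6 and 5 of 13, and Mrps9 in HFD+AOS against AOS in 3 of 13. With the replicate block the adjusted p was 0.0527 for Mrps18b in HFD+AOS against HFD and 0.0664 for Mrps9 in HFD+AOS against AOS (limma). Deviations of same-numbered libraries from their group means had correlations of -0.177 to 0.225, and in 0 comparisons were all over 0.1. The main fit therefore did not pair the samples by number. With 3 libraries per group this check cannot exclude a pairing.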
